A study of Mus musculus with 3 samples.

Results

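Mitochondrial ribosomal proteins are made in the cytosol from nuclear genes with symbols that start with Mrpl or Mrps, and are imported to build the ribosome inside mitochondria. That ribosome translates the few proteins encoded in mitochondrial DNA, all of them subunits of the respiratory chain and the ATP synthase. Its large subunit joins amino acids and carries the exit tunnel, and its small subunit reads the messenger RNA. Some of its proteins have a counterpart in bacterial ribosomes, and others were added in mitochondria. In whole skin, keratinocytes, dividing hair matrix cells, fat cells and the muscle sheet under the dermis all hold mitochondria.

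UniGene clusters, the groups of transcript sequences that the tables count, were taken as members where their description or an exact match of their tags gave a symbol of Mrpl or Mrps followed by a number. This found 80 of 20595 clusters, which stand for 69 of 78 such genes of the reference annotation. Mrpl28, Mrpl54, Mrpl55, Mrps11, Mrps18c, Mrps24, Mrps36, Mrps6 and Mrps9 were not listed, and Mrps36 is no longer counted as a ribosomal protein. The tables list no tag with fewer than 2 copies, so a gene that is not listed need not have been absent. Of the 80 clusters, 76 were listed at day 0, 70 at day 1, 74 at day 2 and 66 at all 3 days. A total of 58 clusters, for 54 genes, had at least 15 tags over the 3 libraries and were tested. The other 22 had at most 14 tags each and reached no more than 3.2 CPM (tags counted per 1000000 tags of a library, after scaling) in any library.

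The skin came from 2-month-old male C57BL/6 mice whose hair had been removed 9 days before the injection, which starts hair growth. Untreated skin (day 0) was compared with skin taken 1 day and 2 days after cyclophosphamide, an alkylating anticancer drug, given into the peritoneum at 150 mg/kg (mg/km in the sample labels). All 3 groups had been depilated, and each has 1 library, so differences between days cannot be checked against replicates. How many mice went into a library is unknown from the labels. The treated skins were also 1 and 2 days further into hair growth, and untreated skin of the same ages of regrowth was not analysed here, so the drug and that time cannot be told apart. Digital gene expression was used, a method that counts transcripts with a poly(A) tail by 1 short tag each, 21 bases long and starting at a CATG site.

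In all, 2731787, 2859653 and 2636804 tags were tabled at days 0, 1 and 2, of which the members had 11073, 9580 and 8341. Levels are CPM with library sizes scaled by TMM, the trimmed mean of M values. All intervals are 95% counting intervals, which take PCR copies for separate molecules. Keratinocyte markers marked the tissue as skin: Krt5 was at 4712, 4974 and 5606 CPM and Krt10 at 6339, 9936 and 8441, while Krt1 reached only 5.33, 5.95 and 9.18. Levels of cell type markers differed between libraries. All 12 of 12 skeletal muscle markers had ratios above 0 at day 2 over day 0, and their summed level was 11375, 17575 and 23446 CPM at days 0, 1 and 2. The summed level of 4 erythroid markers was 1809, 1619 and 140.3, that of 5 adipocyte markers was 3792, 2695 and 2048, and that of 4 markers of cycling cells was 388.9, 420.5 and 443.0. That of 6 fibroblast markers was 2950, 1876 and 3268, of 4 macrophage markers 158.2, 146.9 and 310.4, of 4 melanocyte markers 411.6, 602.3 and 546.2, and of 5 keratinocyte markers 11592, 15411 and 14564. In whole skin, fewer cells of a type and less RNA per cell cannot be told apart, and the part of these shifts in the results below was not tested.

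The tags below are those that carry most of the counts of the members on which the results turn, and they show what was counted for each gene. Capitals mark the CATG site that NlaIII cuts, and the 17 bases after it identify the gene. Positions are from the exact match to GRCm38.

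Mrpl58: CATGaatcactggctgcaata
Mrpl24: CATGgggatccaggagactcg
Mrpl44: CATGccatatgtgaagttcgt
Mrps17, first cluster: CATGtgaagcacgaactggct
Mrps17, second cluster: CATGgggctggaaagttagtt
Mrps18a: CATGctgccccggcgggtcac
Mrps30: CATGctgttatggccacaccc
Mrpl51: CATGggaagtacagataggac

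The Mrpl58 tag lies at chr11:115410882-115410902 on the plus strand, in the 3' UTR of exon 6 of 6, and held 92.7% of the tags of its cluster. That of Mrpl24 is coding sequence of exon 6 of 6 at chr3:87923298-87923318 (plus strand) and held 98.0%. The Mrpl44 tag is in the 3' UTR of exon 4 of 4 at chr1:79781396-79781416 (plus strand) and held 83.0%. The first Mrps17 tag is coding sequence of the last exon of a transcript with 3 exons, at chr5:129718018-129718038. The second is in the 3' UTR of the last exon of a transcript with 4 exons, at chr5:129722193-129722213, both on the plus strand. The Mrps18a tag is coding sequence of exon 4 of 6 at chr17:46125331-46125351 (plus strand), and that of Mrps30 is coding sequence of exon 4 of 5 at chr13:118383014-118383034 (minus strand). The Mrpl51 tag spans the stop codon in exon 3 of 3 at chr6:125193402-125193422 (plus strand) and held 97.1%. It lies 2847 bases from the transcript end, at CATG site 18 from the 3' end. Over the members, 76.5% of 28994 tags were at the CATG site nearest the 3' end of some reference transcript of the gene, 23.2% at another site, and 0.335% had no exact match. By the deposited site number, 47.2% were at the site nearest the 3' end. A further gene or pseudogene also held 10.7% of the tags, and 7 clusters were named through such shared tags, so their copies cannot be separated.

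Summed over its 80 clusters, the mitochondrial ribosomal protein message was lower at each later day. The sum was 3936 CPM (3863 to 4010) at day 0, 3562 (3491 to 3634) at day 1 and 3064 (2998 to 3130) at day 2. The 3 counting intervals did not overlap. Against day 0 the sum fell by 9.5% at day 1 and by 22.2% at day 2. On the log2 scale the ratio of the sums was -0.14 (-0.18 to -0.10) at day 1 over day 0, -0.36 (-0.40 to -0.32) at day 2 over day 0 and -0.22 (-0.26 to -0.17) at day 2 over day 1. The 6 clusters with the most tags held 31.7% of them. Without those 6, the day 2 over day 0 ratio of the sums was -0.38 (-0.43 to -0.33).

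Highest of all were Mrpl51, Mrpl17, Mrpl24 and Mrpl12 in the large subunit and Mrps21 and Mrps23 in the small subunit. A tag is counted per transcript and not per base, so transcript length does not scale these levels, although the CATG site counted differs from gene to gene. Mrpl51, a protein of the large subunit added in mitochondria, had 243.9, 301.9 and 254.9 CPM at days 0, 1 and 2, highest at day 1. Mrpl17, whose bacterial counterpart sits by the exit tunnel, had 287.2, 262.9 and 183.7. Its day 2 interval lies below the others. Mrpl12, the stalk protein that recruits translation factors, had 192.0, 141.7 and 163.5, lowest at day 1. Mrps21 had 152.5, 157.7 and 109.8, and Mrps23 had 130.5, 130.1 and 106.9. In both of these small subunit proteins day 2 was the lowest library, with days 0 and 1 inside each other's intervals.

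**Figure D1:**
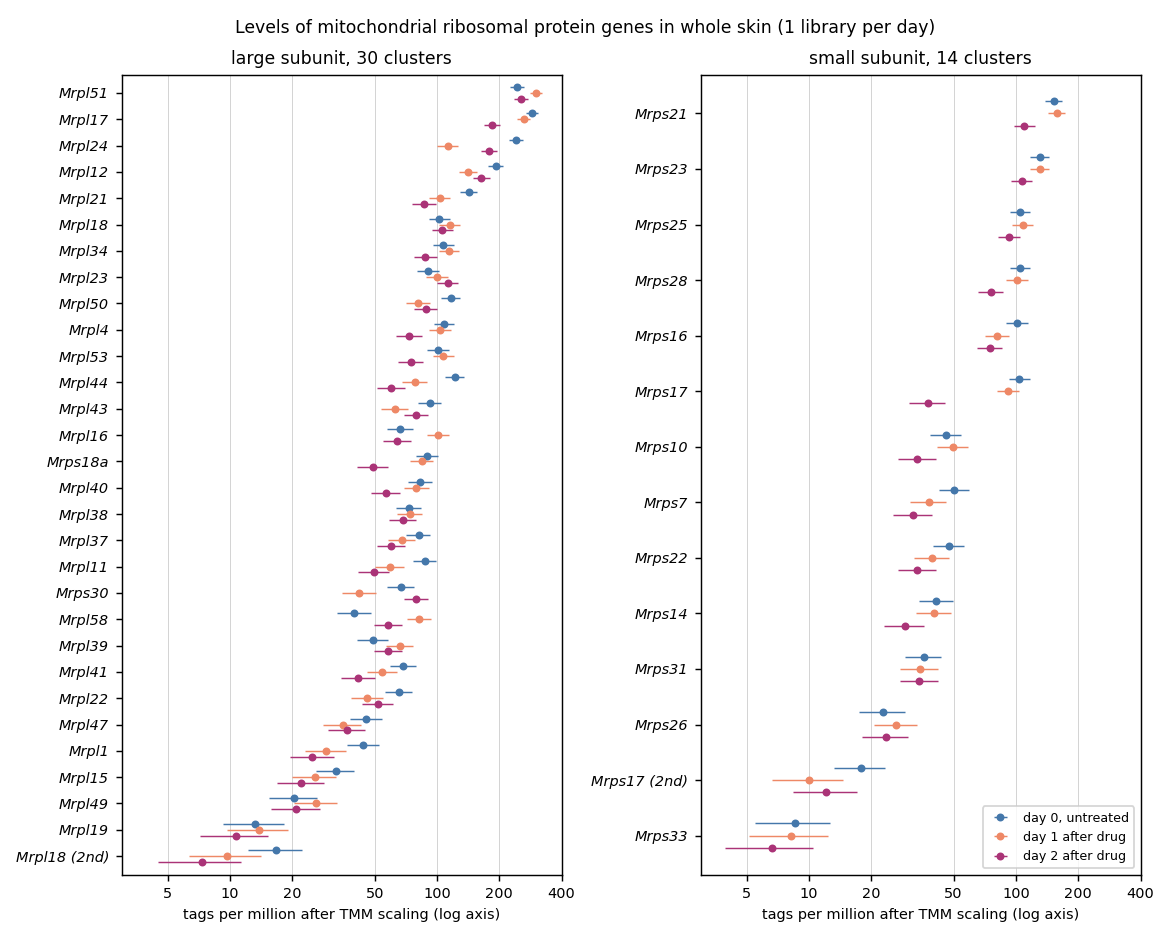
Levels of the 44 member clusters with 60 or more tags over the 3 libraries, in CPM on a log axis, for the large subunit (30 clusters, left) and the small subunit (14, right). Points are single libraries and bars are 95% Poisson counting intervals; day 2 is the lowest library in 29 clusters, among them 12 of the 14 of the small subunit.

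Of the 44 member clusters with 60 or more tags, 28 (63.6%) had their highest level at day 0, 14 (31.8%) at day 1 and 2 (4.5%) at day 2. The lowest level was at day 0 in 7, at day 1 in 8 and at day 2 in 29 (65.9%). Over all 9546 clusters with as many tags, the highest library was day 0 in 36.3%, day 1 in 30.7% and day 2 in 33.1%, and the lowest was day 2 in 36.3%. In the small subunit, 12 of 14 clusters (85.7%) were lowest at day 2, and in the large subunit 17 of 30 (56.7%). Those 2 clusters highest at day 2 were Mrpl23 and Mrps30, named here because the count was small.

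Day 1 against day 0 asks what differed 1 day after the drug. Mrpl58 was called higher and Mrpl24 lower, and the other members with 60 or more tags differed by less than 2-fold. The median log2 ratio over the 58 members tested was -0.11, against -0.02 over all 13812 clusters tested, with 21 members above 0 and 37 below. A cluster was called where an exact conditional binomial test of the tags of 2 libraries, Benjamini-Hochberg adjusted over all 13812 clusters, had an adjusted p no higher than 0.001 and the ratio was at least 2-fold. This test compares 2 libraries, not conditions. It called 1 member higher and 1 lower, against 1.54% higher and 1.39% lower of all clusters, shares near the background. A looser reading, with no adjustment, asks that the counting interval of the ratio excludes no change. By it 4 members were higher and 18 lower, against 15.3% and 15.5% of all clusters. With 60 or more tags, 4 of 44 members were higher and 15 lower, against 1931 and 1873 of 9546 clusters.

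Mrpl58, a large subunit protein that also frees peptides from stalled ribosomes by cutting the peptide from its transfer RNA, had 112, 220 and 158 tags at days 0, 1 and 2. It was highest at day 1, where the interval stood clear of both other days. It rose at day 1 over day 0 by a log2 ratio of 1.04 (0.70 to 1.38), and the exact test had an adjusted p of 4.5e-09. The day 2 over day 0 ratio was 0.54 (0.19 to 0.91), which was not called.

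Mrpl24, the large subunit protein whose bacterial counterpart starts assembly of that subunit, had 679, 303 and 484 tags. Day 1 was the low library, and day 2 lay between it and day 0. It fell by 1.10 (log2 ratio interval -1.30 to -0.90) at day 1 over day 0, for which the adjusted p of the exact test was 2.3e-28. Its log2 ratio was 0.66 (0.45 to 0.87) at day 2 over day 1 and at day 2 over day 0 it was -0.44 (-0.61 to -0.27).

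Among clusters with 60 or more tags, the other ratios at day 1 over day 0 stayed within 2-fold. With fewer tags, Mrpl45 (12, 2 and 2), Mrps2 (14, 4 and 4), Mrpl35 (29, 13 and 11) and Mrpl10 (7, 3 and 5) had ratios beyond 2-fold on the low side, none of them called. Mrpl16, a protein near the site of peptide bond formation, had 187, 272 and 175 tags and a log2 ratio of 0.60 (0.33 to 0.88). Mrpl39 had 138, 178 and 158 tags (log2 ratio 0.43, 0.10 to 0.76). Mrpl51 had 686, 812 and 694 (0.31, 0.16 to 0.46). In these 3 proteins of the large subunit day 1 was the highest library. Mrpl49 had 57, 70 and 57 tags, and its interval of -0.16 to 0.89 took in no change. On the low side the second clusters of Mrps17 and Mrpl18 had log2 ratios of -0.81 (-1.56 to -0.12) and -0.78 (-1.54 to -0.07). Mrps30, which despite its symbol belongs to the large subunit, had 188, 113 and 216 tags. Day 1 was its low library, with a log2 ratio of -0.67 (-1.02 to -0.33) to day 0 and of 0.91 (0.58 to 1.26) from day 1 to day 2. Mrpl44, a large subunit protein with a fold like that of ribonuclease III, had a log2 ratio of -0.64 (-0.90 to -0.39).

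**Figure D2:**
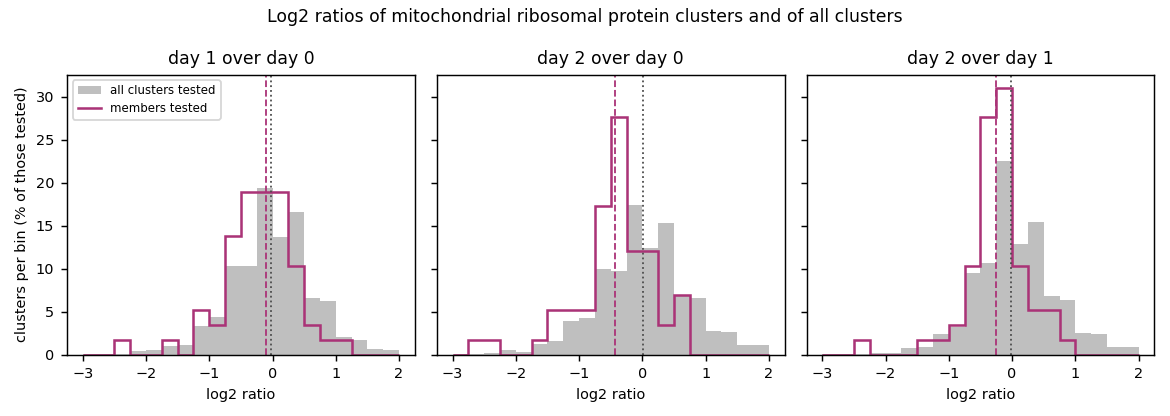
Distribution of log2 ratios for the 58 members tested (outline) and for all 13812 clusters tested (grey), as percent of clusters per bin of 0.25, in the 3 comparisons. Dashed lines are the member medians (-0.11, -0.44 and -0.25 from left to right) and dotted lines the medians of all clusters; values beyond the axis are not drawn.

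Day 2 against day 0 asks what differed 2 days after the drug. Here most members of both subunits were moderately lower. The median log2 ratio was -0.44, against 0.01 over all clusters tested, with 13 members above 0 and 45 below. The strict rule called 0 members higher, against 3.44% of all clusters, and 2 lower (Mrpl44 and Mrps17), against 3.08%, which is a share near the background. At an interval clear of no change, 2 members were higher, against 17.6% of all clusters, and 31 of 58 were lower, against 18.7%. The members below the minimum of 15 tags summed to 20.6, 15.2 and 15.4 CPM and gave a log2 ratio of the sums of -0.42 (-1.03 to 0.18), too wide to show a direction. Over all 80 clusters without the minimum the median was again -0.44.

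Mrps17, a small subunit protein that binds ribosomal RNA, had 292, 247 and 102 tags in its first cluster. Days 0 and 1 lay together and day 2 stood far below them. It fell by 1.47 (log2 ratio interval -1.81 to -1.14) at day 2 over day 0, for which the adjusted p of the exact test was 1.4e-19. Its second cluster, counted through the tag at the other transcript end, had 50, 27 and 33 tags. There day 0 was the highest library, and the day 2 over day 0 ratio was -0.55 (-1.23 to 0.11).

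Mrpl44 had 343, 210 and 164 tags, lower at each later day. It fell by 1.01 (log2 ratio interval -1.29 to -0.74) at day 2 over day 0, and the exact test had an adjusted p of 6.2e-13. Its ratio was just past the 2-fold limit, and under some scalings it was just inside. Just inside the limit in the strict rule stood Mrps18a, another protein of the large subunit with a small subunit symbol. It had 252, 227 and 133 tags, with day 2 below the other days, and a log2 ratio of -0.87 (-1.19 to -0.57). The paralogue Mrps18b had 3, 3 and 2 tags, too few for a ratio, and Mrps18c was not listed.

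Mrpl1, which forms the stalk where transfer RNA leaves, had 124, 78 and 68 tags and a log2 ratio of -0.81 (-1.27 to -0.38) at day 2 over day 0. Mrpl17 had a ratio of -0.64 (-0.81 to -0.48), Mrps21 of -0.47 (-0.69 to -0.26) and Mrpl12 of -0.23 (-0.42 to -0.05). Among clusters with 60 or more tags, the largest ratios in the other direction were those of Mrpl58, then Mrpl23, a protein at the exit of the tunnel, with 255, 269 and 306 tags and 0.31 (0.07 to 0.56). Mrpl23 was named through tags that other genes share. The intervals of Mrps30 (0.25, -0.04 to 0.54), Mrpl39 (0.24, -0.10 to 0.58) and Mrpl51 (0.06, -0.09 to 0.22) took in no change.

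**Figure D3:**
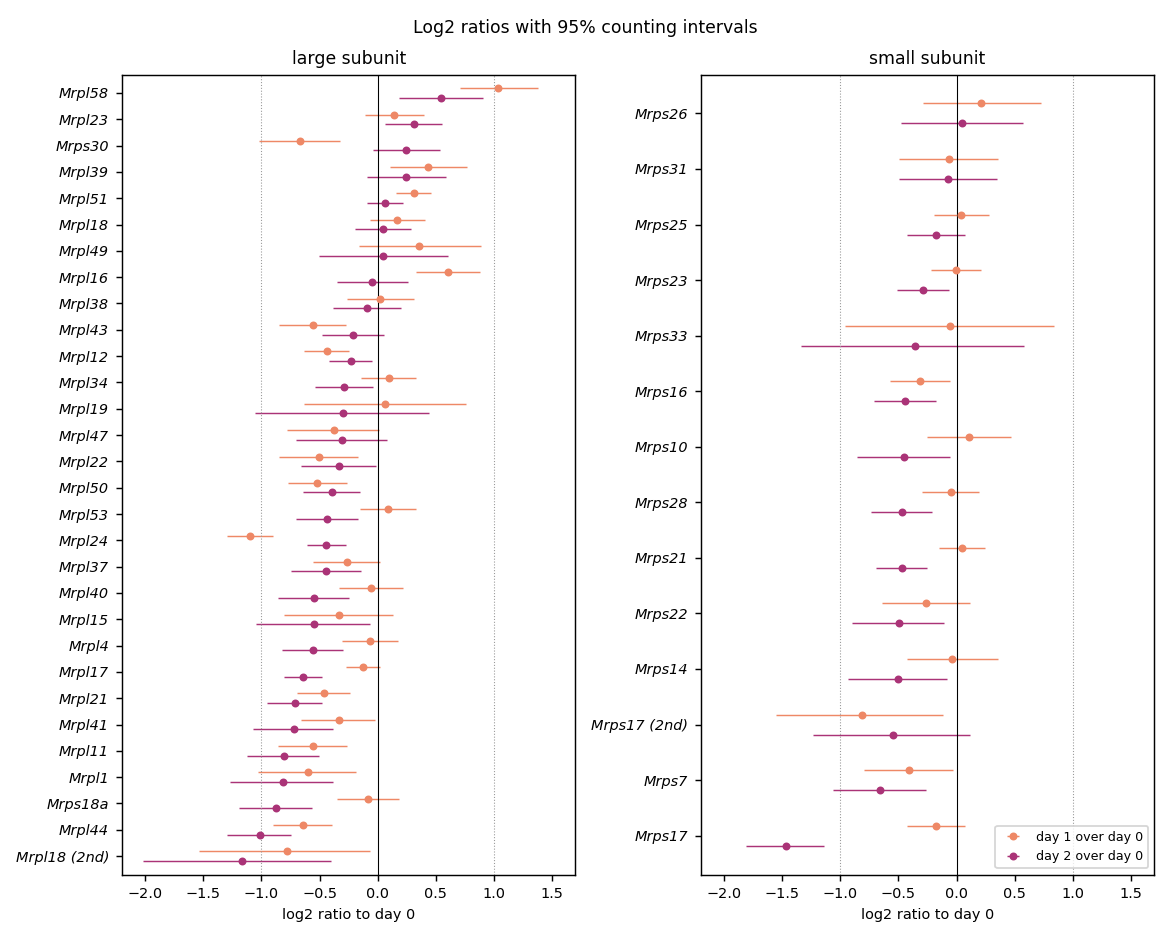
Log2 ratios to day 0 at day 1 (orange) and day 2 (purple) of the same 44 member clusters, ordered by the day 2 ratio; bars are 95% counting intervals and dotted lines mark 2-fold. Both ratios of a gene share the day 0 library; Mrpl58 (1.04) and Mrpl24 (-1.10) pass 2-fold at day 1, and Mrps17 (-1.47), the second cluster of Mrpl18 (-1.17, not called) and Mrpl44 (-1.01) at day 2.

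Day 2 against day 1 asks what differed between the 2 treated skins. The median log2 ratio of the members was -0.25, against -0.02 over all clusters, with 13 above 0 and 45 below. The strict rule called 0 members higher, against 1.82% of all clusters, and 1 lower, against 1.13%. This was the first cluster of Mrps17, which fell by 1.29 (log2 ratio interval -1.64 to -0.96) (adjusted p = 6.1e-14, exact test). At an interval clear of no change 4 members were higher (Mrpl12, Mrpl24, Mrpl43 and Mrps30, all of the large subunit), against 14.0% of all clusters, and 19 lower, against 15.3%. Mrpl43 had 259, 168 and 216 tags and a ratio of 0.34 (0.05 to 0.64). All 4 had their lowest level at day 1. Among the lower ones were Mrps18a at -0.79 (-1.11 to -0.47), Mrpl16 at -0.65 (-0.94 to -0.37), Mrps10 at -0.56 (-0.97 to -0.17), Mrps21 at -0.52 (-0.74 to -0.30) and Mrpl17 at -0.52 (-0.69 to -0.35).

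Split by subunit, the 42 clusters of the large subunit tested had median log2 ratios of -0.21, -0.40 and -0.25 at day 1 over day 0, day 2 over day 0 and day 2 over day 1. The 16 of the small subunit had -0.06, -0.46 and -0.26. Below 0 at day 2 over day 0 were 15 of the 16 small subunit clusters and 30 of the 42 large subunit clusters. The 2 subunits' difference was not tested. The summed level of the large subunit was 2949, 2629 and 2347 CPM and that of the small subunit 986.8, 932.5 and 716.6. Proteins with a bacterial counterpart (33 clusters tested) had medians of -0.33, -0.47 and -0.25, and those added in mitochondria (25 clusters) had -0.06, -0.29 and -0.24. At day 2 over day 0, 28 of the 33 and 17 of the 25 were below 0.

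Several genes were counted at more than 1 CATG site, which gives more than 1 reading of the same gene in the same libraries. In Mrpl44 the 3' UTR tag printed above had 284, 179 and 132 copies and a coding tag had 57, 31 and 32. Their day 2 over day 0 log2 ratios of -1.06 (-1.37 to -0.76) and -0.78 (-1.46 to -0.14) overlapped. In Mrpl50 a 3' UTR tag had 195, 127 and 159 copies and a coding tag 127, 85 and 82, with day 1 ratios of -0.55 and -0.51. Mrpl38 had ratios close to 0 at both of its sites. In other genes the readings of the sites lay further apart. In Mrpl1 a coding tag had 73, 58 and 52 copies and a day 2 ratio of -0.44 (-0.98 to 0.09), while a 3' UTR tag had 40, 16 and 10 copies and a ratio of -1.90 (-3.12 to -0.93), with intervals that just overlapped. Mrps25 had 3 such tags in its 3' UTR. The most abundant had 166, 197 and 141 copies and a day 1 ratio of 0.31 (0.01 to 0.62), another had 57, 16 and 29 copies and -1.74 (-2.67 to -0.95), and these intervals did not overlap. The last of the 3, with 42, 54 and 55 copies, had 0.42 (-0.18 to 1.04), which overlapped the first. The whole cluster of Mrps25 had 295, 290 and 252 tags and a day 1 ratio of 0.04. In Mrps23 a tag with 281, 232 and 202 copies had a day 1 ratio of -0.21 (-0.47 to 0.04). A tag in the UTR of a shorter transcript, with 84, 112 and 85 copies, had 0.48 (0.06 to 0.91), and these intervals did not overlap. Mrpl40 had a 3' UTR tag with 154, 142 and 112 copies and another with 76, 65 and 34. Their day 2 ratios of -0.41 (-0.78 to -0.05) and -1.10 (-1.74 to -0.51) overlapped.

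**Figure D4:**
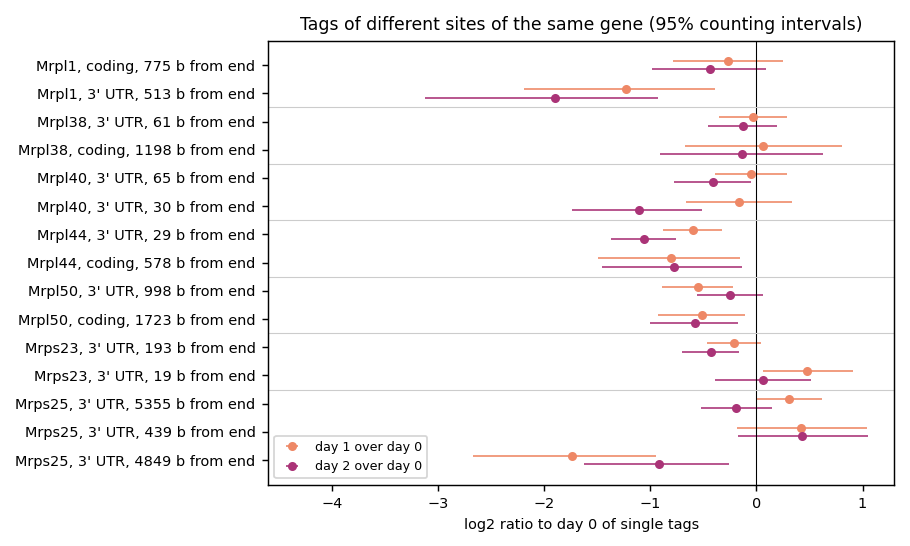
Log2 ratios to day 0 of single tags in the 7 genes with 2 or more tags of at least 60 copies each over the 3 libraries; labels give the gene, the part of the transcript and the distance in bases to the transcript end. Bars are 95% counting intervals. The sites of Mrpl44 overlap, while at day 1 those of Mrps23 do not and 1 of the 3 sites of Mrps25 stands apart.

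Several genes also had a pair of clusters, 11 in all. The second cluster of Mrpl18 (47, 26 and 20 tags) was counted through a coding tag that the predicted gene Gm13675 also holds, and had a day 2 over day 0 ratio of -1.17 (-2.02 to -0.40). The first, counted in the 3' UTR, had 289, 310 and 289 tags and 0.05 (-0.19 to 0.29). These intervals did not overlap. Mrpl45 had 12, 2 and 2 tags in 1 cluster, and 8, 10 and 8 in the other, which was named through shared tags. Mrpl9 had 16, 12 and 2 tags in its main cluster. The second cluster of Mrpl51 had 7, 6 and 3 tags, and its day 2 over day 0 interval (-3.76 to 0.96) took in no change. The second clusters of Mrpl17, Mrpl2, Mrpl9, Mrps10, Mrps33 and Mrps5, and both clusters of Mrpl33, stayed under 15 tags, too few to test.

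Other genes that serve mitochondrial translation were read from lists by role. Of 3 further proteins of the mitochondrial ribosome that have other symbols, the median at day 2 over day 0 was -0.66. The GTP-binding protein Dap3 of the small subunit had 184, 192 and 159 tags (-0.16, -0.48 to 0.15). Aurkaip1 of the small subunit had 440, 390 and 270 (-0.66, -0.88 to -0.44), and Gadd45gip1 of the large subunit had 365, 243 and 186 (-0.92, -1.19 to -0.67). All 3 were lowest at day 2, and none of them was called. Among 22 genes for assembly of the ribosome and modification of its RNA, 0 were called higher and 1 lower at day 2 over day 0. The shares over all clusters were 3.44% and 3.08%. The median was -0.40, with 19 of 22 below 0. Trub2, a pseudouridine synthase, fell from 210 and 134 to 91 tags, a ratio of -1.15 (-1.53 to -0.80). Eral1, which binds the small subunit RNA during assembly, had 128, 103 and 66 tags (-0.90, -1.36 to -0.47), which was not called.

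The 11 translation factors of mitochondria had a day 2 over day 0 median of 0.15. In either direction 0 were called, against 3.44% higher and 3.08% lower of all clusters. Tufm, the elongation factor that delivers transfer RNA, had 41, 60 and 75 tags and a ratio of 0.91 (0.35 to 1.5). The list of mitochondrial aminoacyl-tRNA synthetases had 19 genes tested, among them the amidotransferase subunits Qrsl1 and Gatb. It also held Gars and Kars, whose genes make the cytosolic enzymes too, with 705 and 948 tags at day 0. The day 2 over day 0 median of the list was -0.19, with 15 below 0 and 0 called, against the same shares of all clusters. At day 1 over day 0, 1 of the 19 was called higher, against 1.54% of all clusters. This was Lars2, the leucine enzyme, with 350, 1287 and 468 tags and a ratio of 1.94. A single site held 284, 1213 and 395 of these tags, while the site nearest the 3' end held 64, 68 and 71, with no such rise. Of 13 genes for mitochondrial DNA and its transcription, 1 was called lower at day 2 over day 0, against 3.08% of all clusters. This was the elongation factor Tefm (70, 49 and 26 tags, -1.36), and the median was -0.24.

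The messages that the mitochondrial ribosome translates were read as well. Of 13 messages of mitochondrial DNA on the list, 7 matched a cluster. All 7 had day 2 over day 0 ratios above 0, against 50.4% of all clusters tested. The median was 0.21, with a range from 0.08 to 0.56. The strict rule called 0, against 3.44% higher and 3.08% lower of all clusters. At an interval clear of no change all 7 were higher, against 17.6% of all clusters. Their summed level was 15765, 13839 and 17895 CPM, lowest at day 1. Of 52 respiratory chain and ATP synthase subunits from the nucleus, 1 rose and 2 fell at day 2 over day 0 (median -0.08), against 3.44% and 3.08% of all clusters. At an interval clear of no change, 9 of the 52 were higher and 19 lower, against 17.6% and 18.7%. Atp5j of the ATP synthase rose (1124, 1502 and 2209 tags, 1.02). Ndufv1 of complex I fell (512, 384 and 231, -1.10), and so did Atp5g2 of the ATP synthase (1477, 326 and 582, -1.30), which was named through shared tags. Skeletal muscle is rich in these messages. Its markers had higher levels at both later days, as given above, and a link to these ratios was not tested.

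Cytosolic ribosomal proteins build the ribosome of the cytosol. Of 80 such genes on the list, 39 matched a named cluster, so the values cover a part of the family. The day 2 over day 0 median was -0.50 over 35 clusters tested, with 32 below 0. The strict rule called 0 higher and 7 lower, against 3.44% and 3.08% of all clusters. Their summed level was 43038, 35251 and 25636 CPM. The 4 largest falls among the clusters found were in Rpl32 (244, 22 and 5 tags, -5.43), Rpl9 (13049, 5842 and 3086, -2.03), Rpl13a (989, 508 and 305, -1.65) and Rpl8 (328, 173 and 108, -1.55), all lower at each later day. Whether the Rpl32 cluster, with 244 tags at day 0, holds the main message of its gene was not tested. The difference between the cytosolic and the mitochondrial list was not tested. In 13 mitochondrial stress and protease genes the median was 0.17 and 1 was called lower, against 3.08% of all clusters. This was the serine synthesis enzyme Psat1 (85, 42 and 27 tags, -1.59).

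**Figure D5:**
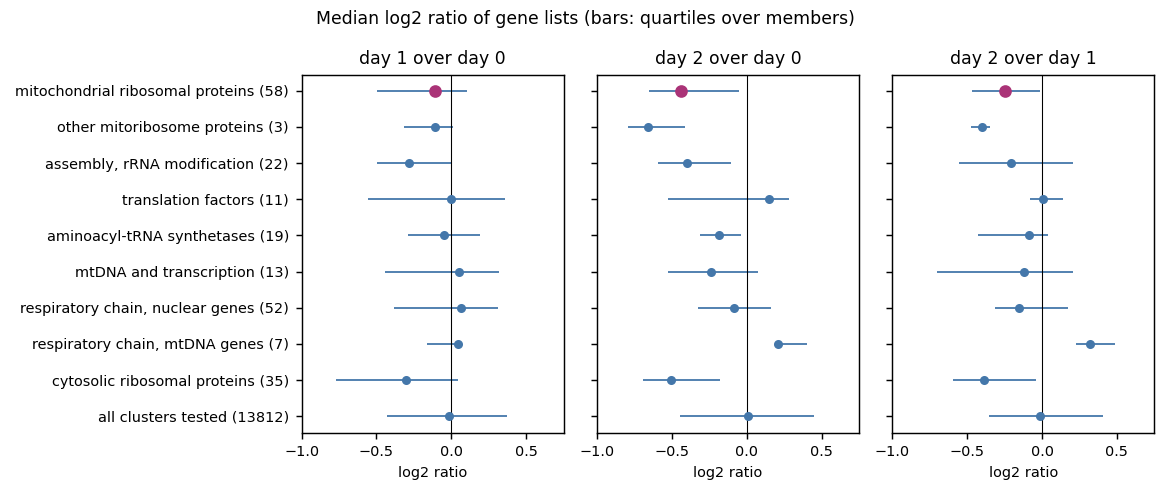
Median log2 ratio (points) and quartiles over members (bars) of the mitochondrial ribosomal proteins and of the lists described beside them, with the number of clusters tested in parentheses, in the 3 comparisons. At day 2 over day 0 the mitochondrial ribosomal proteins are at -0.44, the cytosolic ones at -0.50, the messages of mitochondrial DNA at 0.21 and all clusters at 0.01.

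Promoters of the members were searched for letters bound by factors known to drive mitochondrial genes. RefSeq windows on GRCm38.p6, from 250 bases before to 50 after a gene's start, were at hand for 61 member genes (67 promoters). The ETS motif CCGGAAG of the factor GABPA was in 37.3% of them, against 8.86% of all 32851 promoters of the same length. The shares were 11.9% and 2.71% for the NRF1 motif GCATGCGC, 14.9% and 2.75% for the YY1 motif AAGATGGC, 40.3% and 25.6% for the Sp1 motif GGGCGGG, and 5.97% and 13.6% for the TATA box letters TATAAA. Both strands were searched, and no motif contains another. The median GC content was 58.0%, against 52.7% over all promoters, and the median number of CpG was 21 against 7. A match describes the letters only and is not evidence of binding.

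A member with a single ETS motif beside a YY1 motif and a member with a pair of ETS motifs are shown. They were picked because their genes had day 2 ratios of opposite sign. Mrpl43, Mrpl52, Mrpl53 and Mrps16 also held a pair of ETS motifs. Mrpl52 had too few tags to test. The day 2 over day 0 ratios of Mrpl43, Mrpl53 and Mrps16 were -0.21, -0.43 and -0.44, below 0 unlike that of Mrpl58. A link of motifs to ratios was not tested. Capitals mark the motifs found. The Mrps18a promoter is at chr17:46110754-46111053 and the Mrpl58 promoter at chr11:115403502-115403801, both on the plus strand.

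Mrps18a promoter: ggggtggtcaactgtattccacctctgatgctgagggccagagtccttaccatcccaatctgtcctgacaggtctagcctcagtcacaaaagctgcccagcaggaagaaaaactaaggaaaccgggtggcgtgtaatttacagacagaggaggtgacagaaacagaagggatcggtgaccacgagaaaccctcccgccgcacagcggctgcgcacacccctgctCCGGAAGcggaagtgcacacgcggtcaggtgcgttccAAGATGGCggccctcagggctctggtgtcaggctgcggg
Mrpl58 promoter: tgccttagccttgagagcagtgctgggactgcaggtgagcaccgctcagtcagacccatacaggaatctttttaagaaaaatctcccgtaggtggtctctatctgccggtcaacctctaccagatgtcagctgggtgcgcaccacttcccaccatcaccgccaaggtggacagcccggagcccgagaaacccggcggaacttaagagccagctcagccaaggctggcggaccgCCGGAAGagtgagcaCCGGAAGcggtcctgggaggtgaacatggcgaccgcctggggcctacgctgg

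The 17 tested genes with the ETS motif had a median day 2 over day 0 ratio of -0.36 and the 31 without it -0.40, each gene taken by its most abundant cluster. At day 1 over day 0 the medians were -0.00 and -0.27. For the YY1 motif, 6 genes with it had -0.55 at day 2 over day 0 and 42 without it -0.38. For NRF1 the medians were -0.40 (5 genes with it) and -0.39 (43 without). For Sp1 they were -0.44 (20 genes) and -0.36 (28). For the TATA box they were -0.76 (2 genes) and -0.40 (46). Among the factors themselves, Gabpb1, the partner subunit of GABPA, had 65, 19 and 18 tags and was called lower at both later days. Its log2 ratios to day 0 were -1.68 and -1.78. It was the 1 called of 8 regulators tested, against 1.39% lower of all clusters at day 1 and 3.08% at day 2. Gabpa had 267, 180 and 217 tags and ratios of -0.50 and -0.25, Nrf1 had 39, 37 and 41, and Yy1 had 323, 179 and 314, none of them called. These are levels in the same libraries, and a link to the members was not tested.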

How the data were processed

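Each deposited table gives, per the file headers, a count of tags per UniGene cluster, the tags of each cluster with their copy numbers, and a TPM value, which is the count per 1000000 of all tags the authors kept. Per the labels' protocols, cDNA of oligo(dT)-selected mRNA was cut with NlaIII and MmeI and amplified by PCR. Annotation used a mouse gene database supplied by BGI, per the series design text. An aligner, a limit on mismatches and a build are named nowhere in the labels used here. Only the deposited count was analysed, and TPM served only to recover the number of kept tags (6030092, 6070058 and 5666059 at days 0, 1 and 2).

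Clusters were named by exact match of their tags to GENCODE mouse release M21 on GRCm38 (a gene with at least 80% of the matched and 50% of all tags), by a RefSeq accession or by the description column. Of 20595 clusters, 16038 were named. The positions of single tags come from the same annotation, and promoters from RefSeq. Libraries were scaled by edgeR's TMM (edgeR 4.0.16, R 4.3.3) with factors 1.03, 0.94 and 1.03. Without replicates edgeR's quasi-likelihood test was not possible, so an exact two-sided conditional binomial test (SciPy 1.17.1) compared the tags of 2 libraries, Benjamini-Hochberg adjusted over 13812 clusters with 15 or more tags. Log2 ratios carry a pseudocount of 0.5 tags. Intervals of ratios are Clopper-Pearson and those of levels exact Poisson, at 95%, and cover counting error only. The scripts were tested on simulated data.

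Named with values were members called, the 6 with the highest levels, per comparison the 5 largest and 5 smallest ratios among clusters with 60 or more tags, genes with several clusters, and the Mrps18 paralogues. From the other lists the members called were named, up to 4 per list and comparison by size of ratio, and a few more were added for their role. For cell type markers, sums stand in their place. The members, lists, motifs and tests were chosen with earlier results of these data known. Alternatives were DESeq2 1.42.0 size factors, 3 other scalings, other minimums, sites, pseudocount and fold, and an exact test of edgeR that assumes a coefficient of variation.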

Additional observations from a re-analysis of the deposited data

How the results depend on the processing

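No paired analysis was possible because each group has 1 library. The member median stayed below 0 under all settings tried, from -0.24 to -0.08 at day 1 over day 0, -0.44 to -0.40 at day 2 over day 0 and -0.32 to -0.11 at day 2 over day 1. Scaling to table totals shifted the median of all clusters to -0.15 at day 1 over day 0 and 0.12 at day 2 over day 1. Relative to all clusters, the member median there was -0.09 and -0.23, as with TMM.

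At day 1 over day 0 the median was -0.24 with table totals, -0.18 with all kept tags, -0.17 with tags outside hair, muscle and haemoglobin genes, -0.16 without a tag minimum, -0.16 at the deposited 3'-most site and -0.19 with the clusters of a gene summed. Under the first 3 of these and at the deposited 3'-most site 1 member was called (Mrpl58 was lost under the scalings, at 0.91, 0.96 and 0.97), as it was at the 3'-most site of a reference transcript. With a 1.5-fold limit 5 of 58 were called, 2 higher and 3 lower, against 4.2% and 3.76% of all clusters.

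At day 2 over day 0 the median was -0.40 with all kept tags. With them and without hair, muscle and haemoglobin tags 1 member was called, Mrpl44 being lost at -0.97 and -0.99. At the deposited 3'-most site 4 of 30 were called, all lower, against 3.93% of all clusters, and at 1.5-fold 7 of 58, all lower, against 6.24%. At day 2 over day 1 the medians were -0.11, -0.13 and -0.15 under the 3 scalings, each with 2 called, since Mrps30 then passed 2-fold (1.05, 1.03 and 1.01). At 1.5-fold 5 were called, 2 higher and 3 lower, against 3.49% and 3.18%, and the median at the 3'-most reference site was -0.32.

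With an assumed coefficient of variation of 0.2 or 0.4 between animals, edgeR's exact test called 0 members in all 3 comparisons. Its limit was an adjusted p of 0.05, unlike that of the strict rule. The share over all clusters is not given beside this count, so it does not compare the members with the background. Mrpl51 turned to -0.42 at day 1 and -0.65 at day 2 over day 0 when only its deposited 3'-most site was counted, which holds few of its tags, and the cause was not tested. Mrpl1 reached -1.90 at day 2 over day 0 at its 3'-most site. Counting at the 3'-most reference site and summing the clusters of a gene were chosen after seeing the data. Clusters under 15 tags are too shallow to show a 2-fold change.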
